A study of Homo sapiens with 24 samples.

Results

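RNA of 10 receptors found on the surface of monocytes was followed in 2 human acute myeloid leukaemia cell lines. The receptors were CD14, ITGAM, ITGAX, FCGR1A, FCGR2A, CD36, CD86, CCR2, CX3CR1 and CD163, taken by gene symbol. Both deposited tables held all 10 of these symbols among 35587. MOLM14 cells were kept for 24 h with ARM165, with AZ2 or with the solvent DMSO, and so were OCI-AML2 cells. Each of these 6 groups had 4 libraries, 24 in all. MOLM14 and OCI-AML2 are established leukaemia lines, each a single model, and the labels name no genetic change made to them. Neither the doses nor the origin of the replicates were given in the sources used here, so p-values here reflect spread between libraries that may be technical repeats. The series title speaks of a degrader aimed at PI3K gamma and AKT, and which of the compounds that is remains unstated in the labels.

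Monocytes sense and clear microbes through such receptors. The Fc gamma receptors bind antibody on coated particles, the integrin alpha chains pair with a shared beta chain to bind complement fragments and other cells, CD14 hands bacterial lipopolysaccharide to TLR4, and scavenger receptors take up lipids or haemoglobin. CCR2 guides classical monocytes out of the bone marrow, CX3CR1 marks patrolling monocytes, and CD86 gives T cells a co-stimulatory signal. PU.1, encoded by SPI1, is the transcription factor known for switching on many of these genes in myeloid cells.

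Promoter sequences were compared because members of the group moved together or apart, as described further on. Of the 10 receptors, 9 had an entry in the RefSeq promoter table (build GRCh38.p14), with 17 start sites among them, and ITGAX had none. The 250 bases before each start were searched on both strands for GAGGAA, the core that PU.1 binds, and for TGANTCA, the AP-1 element. The PU.1 core lay in 10 of the 17 windows, against 23.6% of 35116 windows of all genes. Those 10 windows belonged to 8 of the 9 receptors with an entry. The AP-1 element lay in 3 of the 17 windows (of CCR2, CD14 and CD36), against 6.57% of all windows. A match is a description of letters and shows no binding.

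The FCGR1A and FCGR2A windows are shown because both hold the same run of 20 bases, in capitals, which starts 52 bases before the FCGR1A start and 51 bases before the FCGR2A start. That run occurred in 2 of the 35116 windows, those of FCGR1A and FCGR2A, and it contains the PU.1 core read on the other strand (TTCCTC).
FCGR1A, chr1:149782444-149782693, plus strand: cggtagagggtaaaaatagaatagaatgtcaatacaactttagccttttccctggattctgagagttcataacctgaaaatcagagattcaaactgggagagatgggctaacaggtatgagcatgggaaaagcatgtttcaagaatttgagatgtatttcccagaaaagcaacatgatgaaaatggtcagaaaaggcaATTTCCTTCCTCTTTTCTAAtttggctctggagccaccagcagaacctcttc
FCGR2A, chr1:161505207-161505456, plus strand: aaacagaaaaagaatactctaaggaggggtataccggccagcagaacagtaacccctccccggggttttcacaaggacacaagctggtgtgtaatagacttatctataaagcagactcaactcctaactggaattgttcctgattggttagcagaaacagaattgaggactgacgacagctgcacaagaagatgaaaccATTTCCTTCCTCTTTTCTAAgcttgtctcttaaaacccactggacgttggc
The CD86 and CCR2 windows are shown because these receptors had the largest changes in both directions among those tested. Capitals mark 2 PU.1 cores in CD86, 76 and 43 bases before the start, and 1 AP-1 element in CCR2, 212 bases before it. CD86 had another start site, not shown, whose window held neither motif.
CD86, chr3:122055112-122055361, plus strand: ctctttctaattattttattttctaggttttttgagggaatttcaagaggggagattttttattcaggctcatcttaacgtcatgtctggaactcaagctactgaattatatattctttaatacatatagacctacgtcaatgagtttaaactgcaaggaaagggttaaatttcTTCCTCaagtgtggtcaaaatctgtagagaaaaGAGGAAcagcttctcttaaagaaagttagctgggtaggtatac
CCR2, chr3:46353861-46354110, plus strand: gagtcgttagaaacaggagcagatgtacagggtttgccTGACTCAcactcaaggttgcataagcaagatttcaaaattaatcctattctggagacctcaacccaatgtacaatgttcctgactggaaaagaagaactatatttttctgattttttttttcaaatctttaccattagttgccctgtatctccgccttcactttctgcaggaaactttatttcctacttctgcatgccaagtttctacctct

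Values are normalized estimated reads per gene. Estimated depth ranged from 35.4 M to 59.0 M reads per library, and 18889 to 19699 symbols had a value above 0. Because each table has its own scaling and no length correction, levels were compared neither between lines nor between genes. Changes are relative to the rest of the transcriptome of a line, and in these bulk samples fewer cells of a type and less RNA per cell cannot be told apart. Myeloid genes were present in both lines: with DMSO, SPI1 averaged 6248 ± 213 in MOLM14 and 16323 ± 2427 in OCI-AML2, and CD33, a myeloid surface lectin, 2711 ± 194 in MOLM14 and 5570.0 ± 511 in OCI-AML2 (mean ± SD, n = 4). A change is given as the log2 fold change ± SE of value + 1, with limma's p adjusted over all genes tested (Benjamini-Hochberg), and counts as called where that p is under 0.05.

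ARM165 altered most of the receptors in both lines, and it did so in both directions. CCR2, FCGR1A and CD36 fell in both lines, while CD86 and ITGAX rose in both. FCGR2A rose in MOLM14 and fell in OCI-AML2. In MOLM14, 9 of the 9 receptors tested were called with ARM165 against DMSO, 6 higher and 3 lower, beside 69.5% of all 15288 genes tested. In OCI-AML2, 8 of 10 were called, 4 higher and 4 lower, beside 65.8% of 15377 genes. CD163 is 1 of the receptors called as higher in each line, but it passed the filter on low values only through libraries in which it was high, so its call is not counted as support. Without CD163, 8 of 8 receptors were called in MOLM14, 5 higher and 3 lower, and 7 of 9 in OCI-AML2, 3 higher and 4 lower. The share of receptors called is to be read against a response that reached most genes. Without CD163, the median size of the log2 change was 1.13 over the receptors and 0.63 over all genes in MOLM14, and 1.06 over the receptors and 0.66 over all genes in OCI-AML2. Genes listed around the receptors can depend on that filter in the same way: 11 of those called in MOLM14 and 2 in OCI-AML2 passed it only through the side on which they were high. Among markers of other cell types the same held for 2 in MOLM14 and 8 in OCI-AML2. Such genes stay in the counts of rises and falls of their lists, and their calls are not counted as support. The ARM165 and DMSO libraries did not overlap for 9 receptors in MOLM14, beside 63.8% of all genes tested, and for 8 in OCI-AML2, beside 60.5%. Both of these counts include CD163, which is not counted as support. The plot of log2 changes shows the ARM165 changes alongside the intervals for AZ2.

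**Figure D1:**
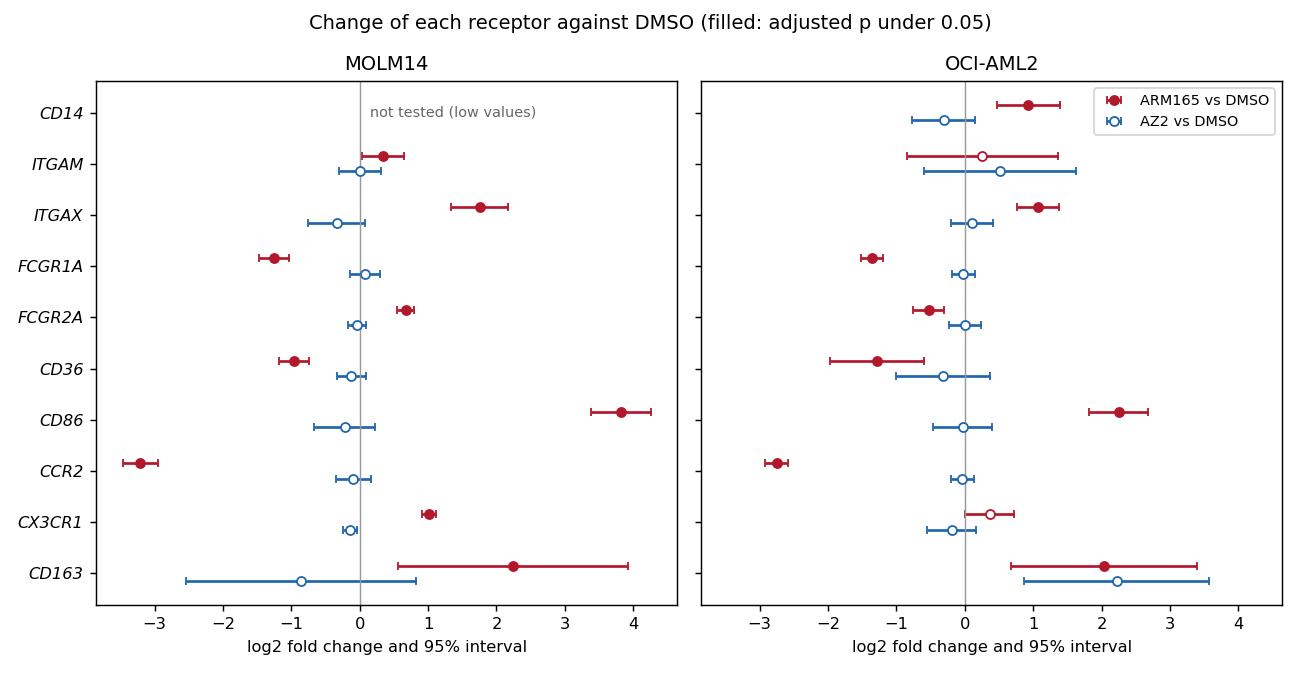
Log2 fold change against DMSO (points) with 95% intervals (bars) for each receptor after ARM165 (red) and AZ2 (blue), MOLM14 on the left and OCI-AML2 on the right; filled points had an adjusted p under 0.05 and CD14 was not tested in MOLM14. The ARM165 changes span -3.21 to 3.82 in MOLM14 and -2.75 to 2.25 in OCI-AML2, and no AZ2 point is filled.

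CCR2, the receptor for the monocyte attractant CCL2, had the deepest fall of the receptors in each line. In MOLM14 it was at 213, 257, 325 and 357 in the 4 ARM165 libraries, 2562, 2246, 2539 and 2498 in the AZ2 libraries and 2439, 2580.5, 2701 and 2763 in the DMSO libraries. Every ARM165 library lay far under every other library, while the AZ2 and DMSO libraries overlapped. The log2 change with ARM165 against DMSO was -3.21 ± 0.12 (adjusted p = 4.3e-12), a 9.23-fold fall. In OCI-AML2, CCR2 was at 689, 629, 781 and 654 with ARM165, 4605, 4262, 4565 and 4645 with AZ2 and 5178, 4949.8, 4194 and 4271 with DMSO. The same separation held there, and the change against DMSO was -2.75 ± 0.08 (adjusted p = 2.36e-13). More negative changes than that of CCR2 were seen in 45 genes tested in MOLM14 and 113 in OCI-AML2.

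CX3CR1, the receptor for fractalkine, moved the other way in MOLM14. It was at 3972, 3834, 4079.8 and 4042 with ARM165, 1761, 1838, 1894 and 1680.4 with AZ2 and 1880.4, 2049, 2022 and 1954 with DMSO in that line. The ARM165 libraries sat at about the same level and clear of both other groups, with a change of 1.01 ± 0.049 against DMSO (adjusted p = 5.73e-11). In OCI-AML2, CX3CR1 was at 198, 169.9, 158 and 138 with ARM165, 98.8, 140.0, 101 and 112 with AZ2 and 143, 107, 131 and 132 with DMSO. There the groups overlapped: the lowest ARM165 library was under the highest library of each other group. The change against DMSO was 0.36 ± 0.17 and did not pass the test (adjusted p = 0.0676). It was called without OCI-AML2 ARM165 replicate 4 (0.45, adjusted p = 0.0378) and with no variance trend (adjusted p = 0.0436). Against AZ2 it was called as higher in OCI-AML2 (0.55 ± 0.17, adjusted p = 0.00848), but not after quantile normalization (adjusted p = 0.058).

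Other chemokine and chemoattractant genes also moved in both directions. Of 16 listed, 5 rose and 6 fell among 12 tested in MOLM14, and 3 rose and 7 fell among 14 in OCI-AML2. Calls over all genes stood at 69.5% in MOLM14 and 65.8% in OCI-AML2. Receptor genes on this list went both ways. CXCR4, which retains cells in the bone marrow, changed by -1.91 ± 0.057 in MOLM14 and -2.09 ± 0.06 in OCI-AML2. CCR1, a receptor for inflammatory chemokines, changed by -0.83 in MOLM14 and -1.02 in OCI-AML2. CCRL2, a receptor on the same list named after its values were seen, was higher with ARM165. It averaged 74.3 ± 4.98 with ARM165 and 23.8 ± 10.2 with DMSO in MOLM14, and 115 ± 9.65 with ARM165 and 25.0 ± 4.55 with DMSO in OCI-AML2. PIK3CG, the catalytic subunit of PI3K gamma that acts beneath chemokine receptors, fell (log2 change -0.52 in MOLM14 and -1.31 in OCI-AML2). Its regulatory subunit PIK3R5 rose by 1.81 in MOLM14 and 1.19 in OCI-AML2. CCL2 itself, named after its values were seen because it is the ligand of CCR2, was at 7.54 ± 3.44 with ARM165 and 5.18 ± 3.59 with DMSO in MOLM14, under the filter on low values. In OCI-AML2 CCL2 averaged 61.96 ± 12.5 with ARM165 and 141 ± 11.1 with DMSO, a fall of 1.20 (adjusted p = 2.54e-05). Its mean there was also lower with AZ2 than with DMSO, at 90.4 ± 6.33, although no gene of this list was called with AZ2 against DMSO.

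**Figure D2:**
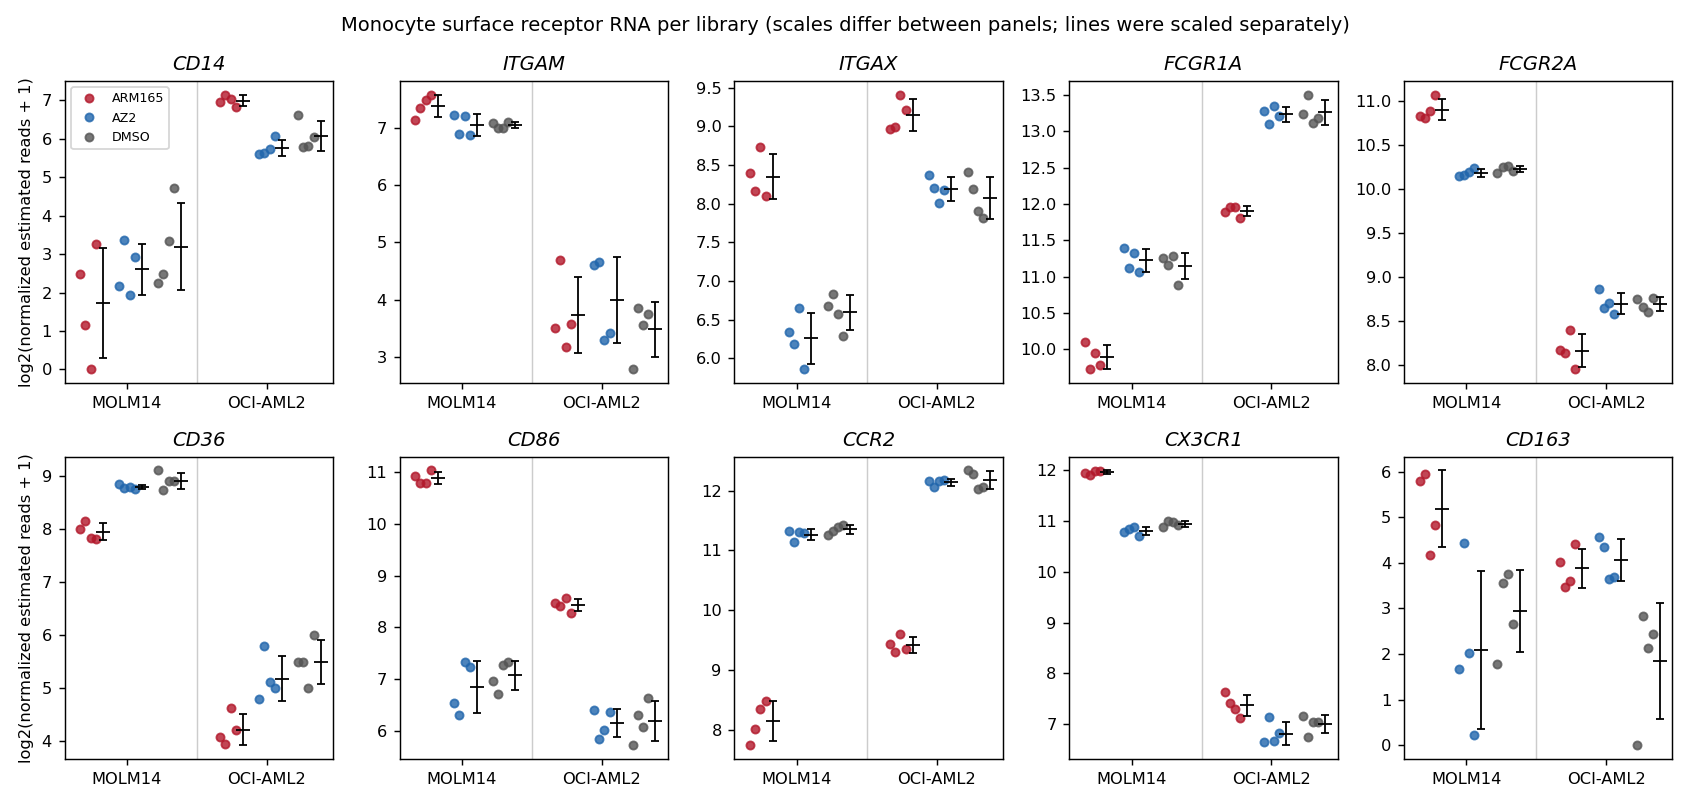
Normalized estimated reads, as log2(value + 1), of each receptor in all 24 libraries, by line and treatment (ARM165 red, AZ2 blue, DMSO grey, from left to right within a line), with the mean ± SD of each group of 4 on that scale beside the points. The ARM165 points stand clear of the DMSO points for 9 receptors in MOLM14 and 8 in OCI-AML2, as they do for 63.8% and 60.5% of all genes tested in the same order of lines, while AZ2 and DMSO points overlap in each panel except CD163 in OCI-AML2; vertical scales differ between panels.

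CD86, a ligand that co-stimulates T cells through CD28, had the largest rise of the receptors in each line. MOLM14 libraries held CD86 at 1951, 1782, 1770.4 and 2104 with ARM165, 91.6, 77.8, 159.6 and 149.8 with AZ2 and 123, 104, 155 and 159 with DMSO. The ARM165 libraries formed a tight group, more than an order of magnitude above all others. The change against DMSO was 3.82 ± 0.21 (adjusted p = 1.88e-10), a 14.1-fold rise. In OCI-AML2, CD86 was at 354, 341, 378 and 311 with ARM165, 83.2, 56.04, 63.3 and 81.4 with AZ2 and 51.7, 77.8, 66.3 and 98.7 with DMSO, again without overlap between ARM165 and the other groups. Its change there was 2.25 ± 0.20 (adjusted p = 7.19e-08), a 4.76-fold rise.

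The other co-stimulatory and inhibitory ligands did not share one direction. Of 10 listed, 4 rose and 2 fell among 8 tested in MOLM14 (median change 0.52, against 0.031 over all genes), and 1 rose and 2 fell among 6 in OCI-AML2 (median -0.26, against 0.034). The share called over all genes was 69.5% in MOLM14 and 65.8% in OCI-AML2. CD80, which binds the same T-cell receptors as CD86, was near the lower limit of the measurement in MOLM14, at 34.96 ± 17.6 with ARM165 and 3.32 ± 5.73 with DMSO. It passed the filter on low values only through the ARM165 libraries, so its difference is given as values and not as a test, although it is 1 of the 4 counted as rises. TNFSF9, the ligand of the T-cell receptor 4-1BB, rose by 1.08 in MOLM14 and 1.15 in OCI-AML2. LGALS9, which encodes galectin-9, a ligand of the inhibitory receptor TIM-3, fell (log2 change -2.12 in MOLM14 and -2.18 in OCI-AML2). ICOSLG, the ligand of ICOS, changed by -0.41 ± 0.076 in MOLM14, and the inhibitory ligand VSIR by -0.51 ± 0.18 in OCI-AML2, both called.

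ITGAX, the alpha chain of complement receptor CD11c/CD18, rose in both lines. The MOLM14 libraries had 337, 286, 426 and 273 with ARM165, 79.9, 71.5, 99.4 and 56.9 with AZ2 and 101, 113, 94.4 and 77.3 with DMSO. Even the lowest ARM165 library was well above the highest DMSO library, and the change was 1.76 ± 0.20 (adjusted p = 8.61e-07). In OCI-AML2, ITGAX was at 498, 507, 679 and 594 with ARM165, 331, 294, 256 and 287 with AZ2 and 339.7, 290.2, 238 and 225 with DMSO. The groups did not overlap there either, and the change was 1.06 ± 0.14 (adjusted p = 7.76e-06).

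ITGAM, the alpha chain of CD11b/CD18 and the direct neighbour of ITGAX on chromosome 16, moved little. In MOLM14 it was at 141, 163, 179 and 191 with ARM165, 149.8, 118, 148 and 117 with AZ2 and 136, 128, 127 and 137 with DMSO. The ARM165 libraries all lay above the DMSO libraries but overlapped the AZ2 libraries. The change of 0.34 ± 0.14 against DMSO was just past the threshold (adjusted p = 0.0454). It did not pass with no filter on low values, with array weights or after quantile normalization (0.095, adjusted p = 0.552). It also lost its call when any 1 of MOLM14 ARM165 replicates 2, 3 and 4 or DMSO replicates 1 to 4 was left out. In OCI-AML2, ITGAM stood near the filter limit, at 10.4, 24.96, 7.999 and 10.9 with ARM165, 23.5, 24.3, 8.76 and 9.63 with AZ2 and 5.85, 13.4, 10.7 and 12.5 with DMSO. All 3 groups overlapped, and the change of 0.25 ± 0.52 had a 95% interval of -0.85 to 1.36 (adjusted p = 0.687).

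ITGB2, the beta chain CD18 that both alpha chains need to reach the surface, fell while ITGAX rose. It averaged 1871 ± 200.5 with ARM165 and 3999 ± 47.6 with DMSO in MOLM14 (-1.10 ± 0.062, adjusted p = 3.09e-10), and 419 ± 27.4 with ARM165 and 1297 ± 90.9 with DMSO in OCI-AML2 (-1.63 ± 0.076, adjusted p = 3.83e-11). Genes of inside-out integrin activation went opposite ways. FERMT3, encoding kindlin-3, which binds the beta chain, rose by 1.37 in MOLM14 and 2.67 in OCI-AML2. RASGRP2, the exchange factor that switches on the integrin activator RAP1, fell (log2 change -1.57 in MOLM14 and -2.20 in OCI-AML2). CYTH1, cytohesin-1, an ARF exchange factor linked to beta-chain adhesion, rose by 2.24 in MOLM14 and 2.03 in OCI-AML2. Of 13 integrin partners and activators listed, 6 rose and 6 fell among 13 tested in MOLM14, and 5 rose and 6 fell among 12 in OCI-AML2. That is to be read beside 69.5% of all genes called in MOLM14 and 65.8% in OCI-AML2.

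FCGR1A, the high-affinity receptor for IgG, fell by similar amounts in both lines. In MOLM14 it was at 1099.5, 845, 984 and 882 with ARM165, 2685, 2220.5, 2559 and 2139 with AZ2 and 2433, 2284, 2487 and 1884 with DMSO. All ARM165 libraries lay under all others, and the change was -1.25 ± 0.10 (adjusted p = 2.53e-08). In OCI-AML2, FCGR1A was at 3802, 3970.1, 3963 and 3581 with ARM165, 9942, 8814, 10432 and 9523 with AZ2 and 9658, 11609, 8892 and 9283 with DMSO. There was again no overlap, and the change was -1.36 ± 0.077 (adjusted p = 3.66e-10).

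FCGR2A, a low-affinity IgG receptor whose promoter window shares the 20-base run shown above, was the receptor whose direction differed between the lines. In MOLM14 it was at 1815, 1793, 1885 and 2148 with ARM165, 1128, 1143, 1168 and 1209 with AZ2 and 1159, 1216, 1224 and 1181 with DMSO. Every ARM165 library was above every other library, with a change of 0.67 ± 0.06 (adjusted p = 6.82e-08). In OCI-AML2, FCGR2A was at 288, 279.8, 335 and 246 with ARM165, 464, 399, 414 and 380.2 with AZ2 and 429, 402, 388 and 433 with DMSO. Here every ARM165 library was under every other library, with a change of -0.53 ± 0.11 (adjusted p = 0.000431). The difference between the lines, OCI-AML2 minus MOLM14, was -1.20 ± 0.12 (adjusted p = 1.22e-08).

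Both Fc receptor genes have near-identical copies, so the split of reads among them is uncertain. FCGR1A took 60.1% of the reads of FCGR1A, FCGR1B and FCGR1CP together with ARM165, 81.7% with AZ2 and 79.8% with DMSO in MOLM14, and 84.4%, 89.7% and 89.95% with ARM165, AZ2 and DMSO in OCI-AML2. Within MOLM14 the copies diverged: FCGR1B fell (-0.54 ± 0.15, adjusted p = 0.00424) and the pseudogene FCGR1CP rose (0.95 ± 0.13, adjusted p = 1.14e-05). Summed, the FCGR1 genes averaged 1585 ± 163 with ARM165, 2934 ± 285 with AZ2 and 2842 ± 265 with DMSO in MOLM14, a change of -0.84 with ARM165 against DMSO (adjusted p = 3.75e-07). In OCI-AML2 the sum averaged 4542 ± 253 with ARM165, 10796 ± 837 with AZ2 and 10964 ± 1356 with DMSO, a change of -1.27 (adjusted p = 1.23e-09).

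For FCGR2A the share among FCGR2A, the inhibitory receptor FCGR2B and FCGR2C was 61.2% with ARM165, 48.3% with AZ2 and 51.8% with DMSO in MOLM14. In OCI-AML2 it lay between 92.9% and 98.9% in all 12 libraries. In MOLM14, FCGR2B rose (0.57 ± 0.11, adjusted p = 0.000217) while FCGR2C fell (-1.62 ± 0.13, adjusted p = 1.61e-08). Summed, the FCGR2 genes still rose in MOLM14 (0.43, adjusted p = 1.77e-05) and fell in OCI-AML2 (-0.51, adjusted p = 0.000755). The sum was chosen after seeing the data.

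**Figure D3:**
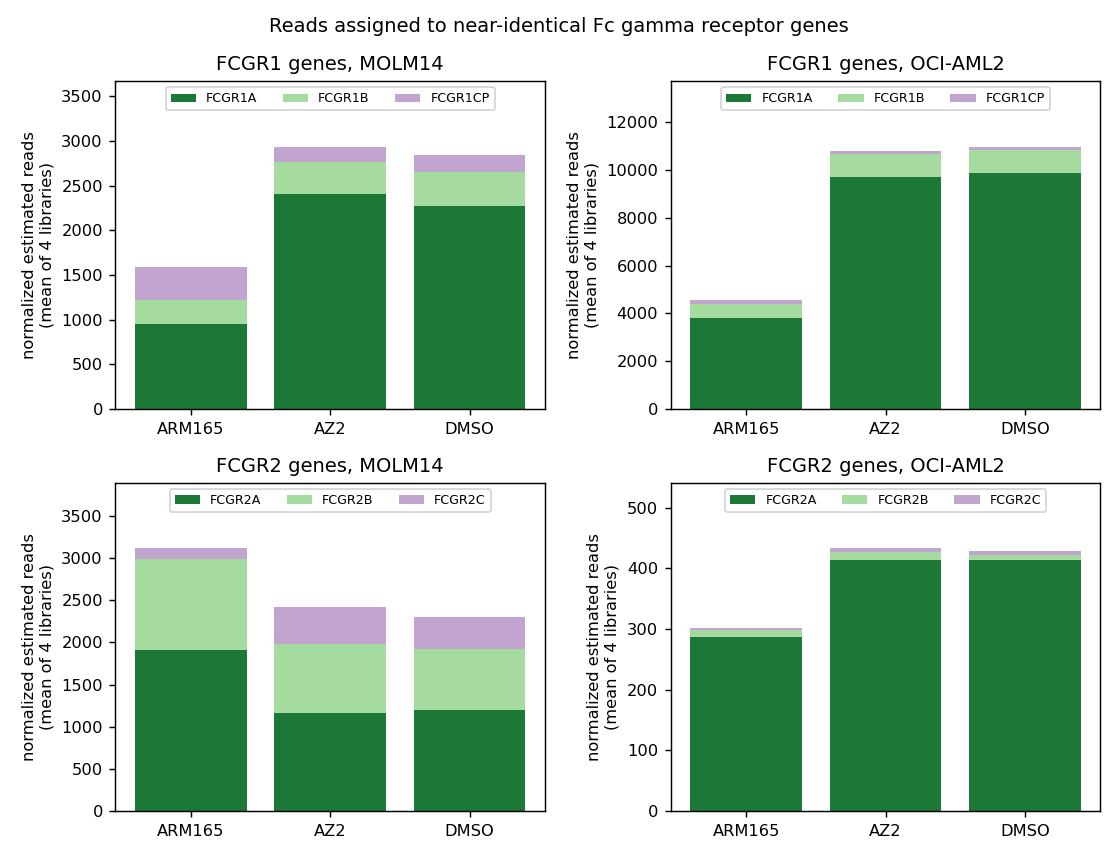
Mean normalized estimated reads of 4 libraries assigned to FCGR1A, FCGR1B and FCGR1CP (top) and to FCGR2A, FCGR2B and FCGR2C (bottom), stacked, by treatment in MOLM14 (left) and OCI-AML2 (right). The FCGR1 stacks are lower with ARM165 in both lines, the FCGR2 stack is higher with ARM165 in MOLM14 and lower in OCI-AML2, and FCGR1A makes up 60.1% of its stack with ARM165 in MOLM14 against 79.8% with DMSO.

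Genes that act beneath Fc receptors moved in both directions with ARM165, with more calls lower than higher in OCI-AML2. SYK, which starts signalling from the phosphorylated receptor tail, fell (log2 change -0.94 in MOLM14 and -1.34 in OCI-AML2). The Src-family kinase FGR fell (log2 change -1.86 in MOLM14 and -0.77 in OCI-AML2). VAV1, a guanine nucleotide exchange factor of blood cells, fell by 0.86 in OCI-AML2. FCER1G, the signalling chain of FCGR1A and named for that role after its values were seen, was low in MOLM14, at 14.6 ± 3.77 with ARM165 and 17.4 ± 2.88 with DMSO (adjusted p = 0.523). In OCI-AML2 it averaged 296 ± 28.2 with ARM165 and 729.9 ± 93.3 with DMSO, a change of -1.30 ± 0.11 (adjusted p = 6.33e-08). Of 15 Fc receptor signalling genes listed, 5 rose and 5 fell among 12 tested in MOLM14, and 3 rose and 6 fell among 12 in OCI-AML2. Beside them, 69.5% of all genes were called in MOLM14 and 65.8% in OCI-AML2.

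CD36, a scavenger receptor for oxidized lipoproteins and long-chain fatty acids, fell in both lines. MOLM14 values were 256, 285, 226 and 224 with ARM165, 460.1, 436, 443 and 434 with AZ2 and 552, 427, 479 and 479 with DMSO. All ARM165 libraries lay under all others, and the change was -0.96 ± 0.10 (adjusted p = 4.64e-07). In OCI-AML2 its values were low and more spread, at 15.9, 14.3, 23.6 and 17.4 with ARM165, 26.7, 54.2, 33.7 and 31.05 with AZ2 and 44.00, 43.9, 30.7 and 62.8 with DMSO. The ARM165 libraries were still under all others, and the change was -1.28 ± 0.32 (adjusted p = 0.00251). The fall against AZ2 in OCI-AML2 (-0.96 ± 0.32, adjusted p = 0.0159) lost its call without AZ2 replicate 2 (adjusted p = 0.0638).

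CD163, which takes up haemoglobin bound to haptoglobin, was near the lower limit in both lines. The MOLM14 values were 54.4, 61.1, 16.9 and 27.5 with ARM165, 2.18, 20.5, 3.07 and 0.174 with AZ2 and 2.46, 10.8, 12.6 and 5.35 with DMSO. All ARM165 libraries lay above the DMSO libraries, and without them CD163 would not have passed the filter in MOLM14, since 3 of the other 8 libraries reached 10. AZ2 replicate 2 was above the lowest ARM165 library. The change against DMSO was 2.24 ± 0.78 (adjusted p = 0.0192), and with no filter on any gene the adjusted p was 0.0443. It lost its call without MOLM14 ARM165 replicate 1 (adjusted p = 0.0581), ARM165 replicate 2 (adjusted p = 0.0629) or DMSO replicate 1 (adjusted p = 0.0601). In OCI-AML2, CD163 was at 15.2, 10.1, 11.2 and 20.3 with ARM165, 22.8, 19.5, 11.5 and 11.9 with AZ2 and 0, 6.11, 3.37 and 4.42 with DMSO. The ARM165 and AZ2 libraries overlapped each other and all lay above the DMSO libraries, 1 of which was at 0. No DMSO library reached 10, so here too CD163 was tested through the groups in which it was high. The ARM165 value against DMSO was 2.03 ± 0.64 (adjusted p = 0.0107, or 0.0185 with no filter).

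Genes of haem and lipid handling around CD163 and CD36 had some of the largest changes on any list. HMOX1, haem oxygenase-1, which breaks down the haem that CD163 brings in, averaged 14242 ± 704 with ARM165 and 42.6 ± 1.100 with DMSO in MOLM14, and 9704 ± 390.0 with ARM165 and 56.2 ± 6.496 with DMSO in OCI-AML2. Its log2 change was 8.35 ± 0.14 in MOLM14 and 7.41 ± 0.15 in OCI-AML2. PPARG, a nuclear receptor known to activate CD36 in macrophages, averaged 15712 ± 734 with ARM165 and 137 ± 51.7 with DMSO in OCI-AML2, and 1162 ± 63.01 with ARM165 and 8.499 ± 3.67 with DMSO in MOLM14. PPARG thus rose in OCI-AML2 (adjusted p = 1.46e-12), where CD36 fell. In MOLM14 PPARG passed the filter only through the ARM165 libraries. PLIN2, which coats lipid droplets, rose by 1.36 in MOLM14 and 3.56 in OCI-AML2. FABP5, a fatty acid carrier, fell (log2 change -2.07 in MOLM14 and -1.59 in OCI-AML2). SCARB2, a lysosomal relative of CD36, rose by 1.43 in MOLM14. Of 15 genes on that list, 7 rose and 2 fell among 12 tested in MOLM14, and 6 rose and 3 fell among 13 in OCI-AML2. The rises in MOLM14 include PPARG and OLR1, which passed the filter there only through the ARM165 libraries and are not counted as support. For comparison, 69.5% of all genes were called in MOLM14 and 65.8% in OCI-AML2.

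CD14, the co-receptor for lipopolysaccharide that defines classical monocytes, was nearly undetected in MOLM14. It was at 4.55, 1.25, 0 and 8.51 with ARM165, 3.51, 9.404, 2.83 and 6.55 with AZ2 and 3.72, 4.57, 9.12 and 25.5 with DMSO in that line, with 1 of the 12 libraries at 10 or more, and it was not tested. In OCI-AML2, CD14 was at 123, 140.3, 130.3 and 112 with ARM165, 47.3, 48.3, 52.3 and 65.99 with AZ2 and 97.7, 54.3, 54.7 and 64.6 with DMSO. Every ARM165 library was above every other library, although DMSO replicate 1 came close. The change was 0.93 ± 0.22 against DMSO (adjusted p = 0.00137).

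The partners that receive lipopolysaccharide from CD14 rose in both lines, although CD14 itself could be tested in OCI-AML2 only. TLR4 and LY96, named for this role after their values were seen, form the signalling receptor. TLR4 changed by 0.97 ± 0.27 in MOLM14 (adjusted p = 0.00523) and 2.11 ± 0.15 in OCI-AML2 (adjusted p = 7.08e-09), and LY96 by 1.51 ± 0.24 in MOLM14 (adjusted p = 3.37e-05) and 2.37 ± 0.34 in OCI-AML2 (adjusted p = 1.61e-05). The adaptor TICAM1 rose by 1.21 in MOLM14 and 2.12 in OCI-AML2, and the ubiquitin ligase TRAF6 by 1.87 in MOLM14 and 2.06 in OCI-AML2. TLR2, a lipopeptide receptor that CD14 also serves, fell (log2 change -1.15 in MOLM14 and -1.66 in OCI-AML2). TLR6, a partner of TLR2, rose by 1.69 in MOLM14, and CD180, a relative of TLR4, fell by 2.09 in OCI-AML2. Of 14 listed sensing genes, 6 rose and 4 fell among 13 tested in MOLM14 (median change -0.049), and 8 rose and 2 fell among 14 in OCI-AML2 (median 1.08). Among all genes tested, 69.5% were called in MOLM14 and 65.8% in OCI-AML2.

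AZ2 altered none of the receptors past the threshold. With AZ2 against DMSO, 0 of 9 receptors were called in MOLM14, beside 0% of all genes tested (0 of 15288, with 899 at an unadjusted p under 0.05), and 0 of 10 in OCI-AML2, beside 0.111% (17 of 15377 genes). A single receptor in each line had an unadjusted p under 0.05 in limma. In MOLM14 it was CX3CR1, at 1793 ± 92.9 with AZ2 and 1976 ± 75.4 with DMSO, a change of -0.14 ± 0.049 (adjusted p = 0.702). In OCI-AML2 it was CD163, at 16.4 ± 5.59 with AZ2 and 3.47 ± 2.58 with DMSO, a change of 2.22 ± 0.64 with a 95% interval of 0.86 to 3.58 (adjusted p = 0.621). That was the only receptor in either line whose AZ2 and DMSO libraries did not overlap, beside 4.43% of all genes tested in MOLM14 and 2.67% in OCI-AML2. The next largest AZ2 change in OCI-AML2 was that of ITGAM (0.51 ± 0.52).

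The intervals show how large an AZ2 effect remained possible. The narrowest in MOLM14 was that of CX3CR1, -0.25 to -0.036, which lies below 0 before any adjustment for the number of genes, and in OCI-AML2 the interval of CX3CR1 was -0.55 to 0.17. Other intervals lay around 0 and were also narrow: CCR2 -0.35 to 0.17 in MOLM14 and -0.21 to 0.14 in OCI-AML2, FCGR1A -0.14 to 0.30 in MOLM14 and -0.19 to 0.14 in OCI-AML2, and FCGR2A -0.17 to 0.088 in MOLM14 and -0.23 to 0.23 in OCI-AML2. For CD86 the interval was -0.66 to 0.22 in MOLM14 and -0.46 to 0.40 in OCI-AML2, well short of the change with ARM165. For ITGAM in OCI-AML2 (-0.59 to 1.62) and CD163 in MOLM14 (-2.53 to 0.82) the values were low and the intervals wide. Of all the listed genes around the receptors, 1 was called with AZ2: the early response transcription factor EGR1 averaged 2221 ± 154 with AZ2 and 1547 ± 63.3 with DMSO in OCI-AML2 (0.52 ± 0.066, adjusted p = 0.00335).

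Set against AZ2 in place of DMSO, ARM165 gave closely similar values for the receptors. This comparison uses the same ARM165 libraries, and the doses of the compounds are not known to match. In MOLM14, 9 of 9 receptors were called, 6 higher and 3 lower, beside 70.1% of all genes, with changes of 4.04 for CD86, 2.09 for ITGAX and -3.12 for CCR2. CD163 is 1 of the 6 rises in MOLM14. It passed the filter there only through the ARM165 libraries, so its call is not counted as support here either. ITGAM is another (adjusted p = 0.0469 in limma), although its ARM165 and AZ2 libraries overlapped. The ITGAM call was lost under 14 of 24 alternative runs. In OCI-AML2, 8 of 10 were called, 4 higher and 4 lower, beside 65.8% of all genes, with changes of 2.28 for CD86, 1.23 for CD14 and -2.72 for CCR2. CD163 in OCI-AML2 was not called against AZ2 (-0.19 ± 0.64, 95% interval -1.55 to 1.17, adjusted p = 0.812), whereas it was against DMSO. Most receptors thus had the same order of levels, with AZ2 and DMSO as neighbours that did not differ beyond their spread and ARM165 at one end. The exceptions by mean were ITGAM and CD163 in OCI-AML2, where AZ2 was highest and DMSO lowest.

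The response to ARM165 differed in size between the lines for 5 of the 9 receptors tested in both, beside 42.4% of 14287 genes. CD86 rose less in OCI-AML2 than in MOLM14 (difference -1.57 ± 0.30, adjusted p = 0.000159), and so did ITGAX (-0.69 ± 0.25, adjusted p = 0.0266). CX3CR1 rose in MOLM14 and its change was smaller in OCI-AML2 (-0.65 ± 0.15, adjusted p = 0.00132). FCGR2A differed in direction, as given above. CCR2 fell less deeply in OCI-AML2 (0.45 ± 0.16, adjusted p = 0.0215).

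Of these differences, those of CD86, CX3CR1 and FCGR2A kept their calls under every alternative run. The ITGAX difference lost its call without any 1 of 5 libraries, namely MOLM14 ARM165 replicate 3, MOLM14 DMSO replicate 4, OCI-AML2 ARM165 replicates 1 and 2 and OCI-AML2 DMSO replicate 1, with adjusted p-values of 0.0523 to 0.0691. The CCR2 difference lost its call with all libraries scaled to the same total (0.30, adjusted p = 0.0974), without MOLM14 ARM165 replicate 1 (0.32, adjusted p = 0.0536) and without OCI-AML2 ARM165 replicate 3 (adjusted p = 0.0532). FCGR1A alone did not differ past the threshold between the lines (-0.11 ± 0.14, 95% interval -0.39 to 0.18, adjusted p = 0.569), but the sum with its copies did (-0.42, adjusted p = 0.00826). The intervals for CD36 (-0.92 to 0.29), ITGAM (-1.06 to 0.89) and CD163 (-2.36 to 1.94) were wide. For AZ2, 0 of 9 receptors differed between the lines, beside 0.028% of genes (4 of 14287). CD163 had the widest of these differences (3.08 ± 1.04, adjusted p = 0.722 in limma).

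**Figure D4:**
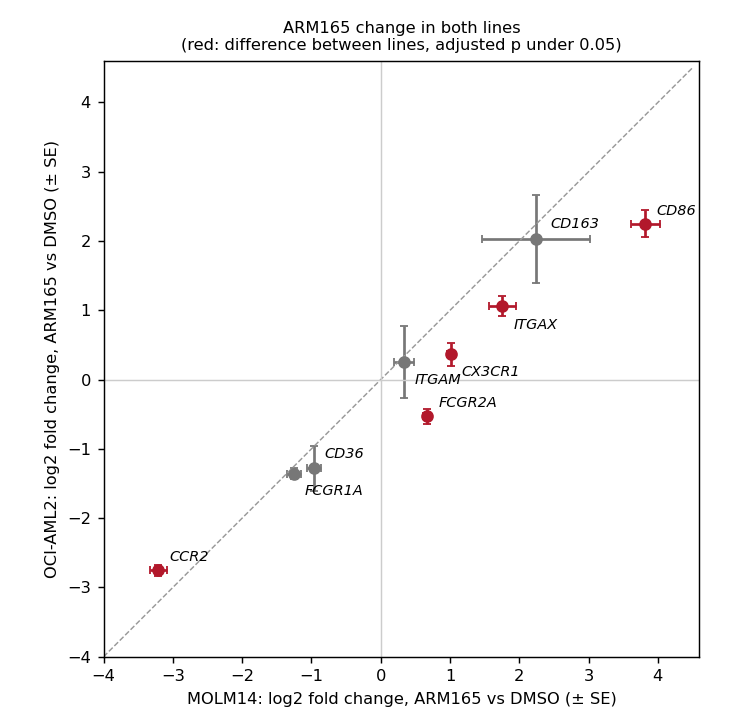
Log2 fold change with ARM165 against DMSO in MOLM14 (x) and in OCI-AML2 (y), with SE bars, for the 9 receptors tested in both lines; the dashed line marks equal change and red points had a difference between lines with an adjusted p under 0.05. CD86 (3.82 in MOLM14, 2.25 in OCI-AML2) and FCGR2A (0.67 in MOLM14, -0.53 in OCI-AML2) lie farthest below the line.

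Across the 24 libraries, each line centred on its own mean, the receptors fell into patterns that mostly separated the ARM165 libraries from the rest. CCR2 and FCGR1A ran together (r = 0.968) and against CD86 (r = -0.957 for CCR2 and -0.925 for FCGR1A). CD86 ran with ITGAX (r = 0.925) and CX3CR1 (r = 0.905). FCGR2A had weak correlations with all of these, from -0.173 with CCR2 to 0.449 with CX3CR1, and those of ITGAM ranged from -0.206 with CD36 to 0.414 with CD163. ITGAM and its neighbour ITGAX had r = 0.205. These are descriptions over 24 libraries that share 8 ARM165 libraries with large changes, and depth differs among them.

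By the same measure over 14287 genes, the 2 genes most like CCR2 were UNG (r = 0.996) and PARP1 (0.996), both DNA repair enzymes, and 1357 genes exceeded 0.95. Those most like FCGR1A were ATP1B3 (0.990), a sodium pump subunit, and MTRR (0.987), methionine synthase reductase, with 1006 genes over 0.95. CD86 was most like PRAG1 (0.990) and TMEM71 (0.987), with 315 genes over 0.95. ITGAX was most like SSH1 (0.962), a cofilin phosphatase, and TRIM16 (0.959), and CX3CR1 was most like IQCN (0.961) and PIP4P2 (0.959). FCGR2A had 1 gene over 0.95, SLC45A3 (0.957), followed by CD70 (0.940), the ligand of CD27. Both shared its direction in each line, with changes of 1.24 and 1.10 in MOLM14 and -0.75 and -0.47 in OCI-AML2. The patterns of CD36 (TMEM218 0.918, SLC25A30 0.911), CD163 (RGS17 0.780, ANKRD6 0.776) and ITGAM (KIAA0586 0.662, TIAM1 0.658) had no gene above 0.95.

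Other genes of the monocyte program leaned to lower values with ARM165. Of 24 listed, 6 rose and 13 fell among 22 tested in MOLM14 (median -0.37, against 0.031 over all genes), and 6 rose and 14 fell among 23 in OCI-AML2 (median -0.92, against 0.034). The calls stand beside 69.5% of all genes called in MOLM14 and 65.8% in OCI-AML2. LYZ, the secreted enzyme lysozyme, averaged 2677 ± 200.4 with ARM165 and 20319 ± 455 with DMSO in MOLM14, a change of -2.93 ± 0.049. The calprotectin genes S100A8 and S100A9 fell in MOLM14 (-4.08 and -3.15 in log2 units), and S100A9 fell by 1.85 in OCI-AML2. MS4A6A, a membrane protein of monocytes, fell by 3.07 in MOLM14. In OCI-AML2 the inhibitory lectin CLEC12A (-2.21) and the nuclear antigen MNDA (-2.47) fell, while LGALS3, galectin-3, rose by 1.86. TREM1 and LILRB4, named after their values were seen, were higher with ARM165 in both lines. In MOLM14, TREM1 averaged 779 ± 126 with ARM165 and 15.5 ± 8.29 with DMSO, and LILRB4 2276 ± 155 and 1448 ± 88.2. In OCI-AML2, TREM1 averaged 4281 ± 390 with ARM165 and 623 ± 93.2 with DMSO, and LILRB4 3435 ± 183 and 920 ± 85.9.

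Transcription factors of the lineage split. IRF8, which directs monocyte commitment, fell (log2 change -1.48 in MOLM14 and -2.11 in OCI-AML2). CEBPB, a factor of inflammatory and mature monocytes, rose by 2.58 in MOLM14 and 2.73 in OCI-AML2, and KLF4, which promotes monocyte differentiation, by 1.33 in MOLM14 and 3.34 in OCI-AML2. STAT3 rose by 0.89 in MOLM14, and CEBPE, a granulocyte factor, fell by 1.82 in OCI-AML2. In MOLM14 CEBPE had the opposite direction (1.70 ± 0.62, adjusted p = 0.0228), at values low enough that it passed the filter only through the ARM165 libraries. SPI1 changed by 0.33 ± 0.053 in MOLM14 (adjusted p = 3.98e-05) and by -0.099 ± 0.096 in OCI-AML2, where it did not pass the test (adjusted p = 0.383). It was named after its values were seen because of the motif above. Of 15 factors, 8 rose and 4 fell in MOLM14, and 6 rose and 5 fell in OCI-AML2. The shares of all genes called were 69.5% in MOLM14 and 65.8% in OCI-AML2.

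Proteases that release receptors from the surface, with their cofactors and inhibitors, were read as 1 list. ADAM17, the main shedding protease of CD163 and other monocyte receptors, averaged 4347 ± 52.6 with ARM165 and 2008 ± 75.4 with DMSO in MOLM14 (1.11 ± 0.047), and 5562 ± 353 with ARM165 and 1870.4 ± 297 with DMSO in OCI-AML2 (1.58 ± 0.098). In MOLM14 the proteases ADAM9, MMP14 and ADAM8 rose by 1.19, 0.80 and 1.75. In OCI-AML2 RHBDF1, a cofactor that matures ADAM17, rose by 4.31, the protease FURIN by 2.29 and the inhibitor TIMP1 by 1.75. TIMP1 also rose in MOLM14 (0.65), and the inhibitor TIMP2, named after its values were seen, rose by 0.84 in MOLM14 and fell by 0.88 in OCI-AML2. Of 12 listed, 8 rose and 0 fell among 11 tested in MOLM14 (median 0.83), and 8 rose and 1 fell among 11 in OCI-AML2 (median 1.31). Over all genes tested, 69.5% were called in MOLM14 (median 0.031) and 65.8% in OCI-AML2 (median 0.034). Surface protein was not measured.

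**Figure D5:**
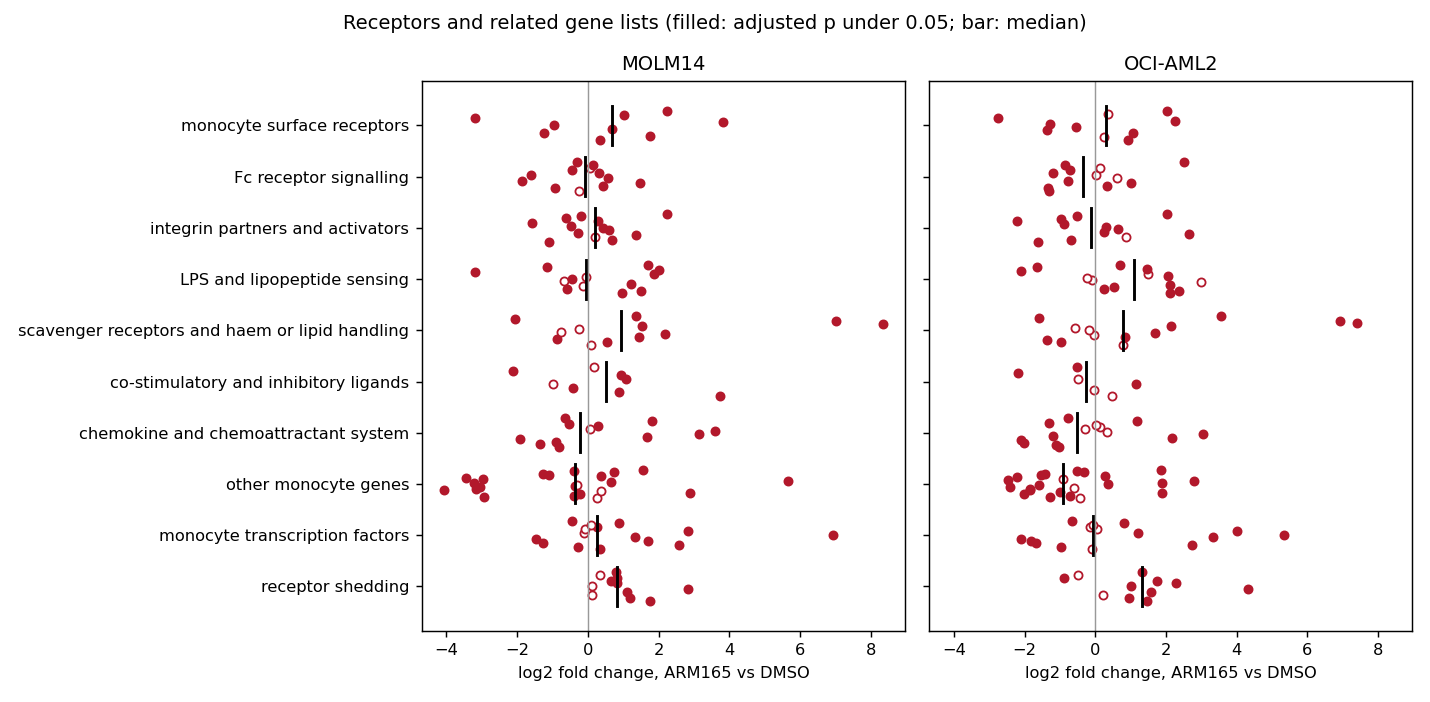
Log2 fold change with ARM165 against DMSO of the receptors and of 9 lists of related genes, in MOLM14 (left) and OCI-AML2 (right); each point is a gene, filled at an adjusted p under 0.05, and the black bar is the median of the tested members. Points of most lists lie on both sides of 0, and the median of the receptor shedding list is 0.83 in MOLM14 and 1.31 in OCI-AML2.

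Markers of other cell types were read in the same libraries. Of 11 neutrophil-lineage markers listed, 5 of 6 tested fell and 0 rose in MOLM14, and 7 of 8 fell and 0 rose in OCI-AML2 with ARM165, beside 69.5% of all genes called in MOLM14 and 65.8% in OCI-AML2. Among those in OCI-AML2, MPO and MMP8 passed the filter only through the AZ2 and DMSO libraries. In MOLM14 the summed level of all 11 neutrophil-lineage markers per library ranged over 21679 to 29437 with ARM165, 79700.4 to 97381 with AZ2 and 81534 to 85384 with DMSO. In OCI-AML2 that sum ranged over 3726 to 5496 with ARM165, 21733 to 24514 with AZ2 and 21213 to 24199.9 with DMSO. LTF, the neutrophil granule protein lactoferrin, was at 0 in all ARM165 and all DMSO libraries of MOLM14. The part of these markers in the receptor changes was not tested. Stem and progenitor markers rose in 3 and fell in 1 of 4 tested in MOLM14, and rose in 1 and fell in 2 of 4 in OCI-AML2. Their sum, mostly MYB with DMSO, ranged over 18189 to 20364 with ARM165 and 32505 to 33700.0 with DMSO in MOLM14, and over 7095 to 8394 with ARM165 and 19594 to 21155 with DMSO in OCI-AML2, and their part was not tested either. The stem and progenitor counts, too, stand beside 69.5% of all genes called in MOLM14 and 65.8% in OCI-AML2. SPINK2, a fall on that list in OCI-AML2, passed the filter only through the AZ2 and DMSO libraries.

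The remaining marker lists held few tested genes, and many of their defining members were absent. VPREB1 of B cells and CD207 of dendritic cells were at 0 in all 24 libraries, and KRT19 of epithelia was at 0 in 5 of the 6 groups. With ARM165, T and NK cell markers rose in 2 and fell in 2 of 5 tested in MOLM14, and rose in 0 and fell in 4 of 5 in OCI-AML2. NCAM1, which leukaemia cells can express, held most of that list's level. B-cell markers rose in 0 and fell in 2 of 4 in MOLM14, and rose in 0 and fell in 1 of 3 in OCI-AML2. Dendritic cell markers rose in 0 and fell in 3 of 4 in MOLM14, and rose in 1 and fell in 2 of 4 in OCI-AML2. Megakaryocyte and platelet markers rose in 2 and fell in 1 of 4 in MOLM14, and rose in 0 and fell in 1 of 3 in OCI-AML2. Epithelial and fibroblast markers rose in 2 of 4 in MOLM14 and none of 4 were called in OCI-AML2. EPOR, the single erythroid marker tested, changed by -0.32 in MOLM14 and -0.87 in OCI-AML2. The counts on these marker lists stand beside 69.5% of all genes called in MOLM14 and 65.8% in OCI-AML2. Among the falls, CD1A and CD1C in MOLM14 passed the filter on low values only through the AZ2 and DMSO libraries. In OCI-AML2 the same held for CLEC10A, PAX5, GNLY, PRF1 and ITGA2B. The falls of these genes are not counted as support.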

How the data were processed

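RNA was measured in 24 libraries, 4 for each of ARM165, AZ2 and DMSO in MOLM14 and OCI-AML2. Per the labels' protocols, libraries came from a stranded TruSeq mRNA kit. Quantification was with kallisto, per the submitters' processing notes. Its version, the genome build, the annotation and the scaling are not given in the sources used here. The deposited signal values are the authors' normalized counts per gene symbol as estimated from transcripts, with a table for each line. Of values above 0, 15.1 to 15.9% were whole within 0.01 after division by the value of 1 read, so whole counts were not recovered and count tests were not run. Depth was 35.4 M to 59.0 M estimated reads per library. The median SE per log2 change was 0.099 (MOLM14), 0.115 (OCI-AML2) or 0.148 (between lines). No column was left out.

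Groups came from the labels. The log2 of value + 1 was analysed for every gene that reached 10 in 4 or more libraries of its line. A mean per group was fitted with limma 3.58.1 in R 4.3.3 to the 12 libraries of a line, with empirical Bayes moderation towards a variance trend. Differences between lines came from 1 fit of all 24 libraries over genes kept in both. P-values were adjusted over all genes tested, and 95% intervals are of single genes. The fit was tested on simulated data. The receptors and all gene lists were chosen with earlier results of these data known. Genes named were the receptors, up to 4 called members of each list per line with the smallest adjusted p, the 2 genes most correlated with each receptor, and list genes called with AZ2, besides those said to be named later. Other pseudocounts (0.5 and 5), filters, scalings, weights, a replicate block, fits of only the groups compared, and leaving out each library were tried. Plots used matplotlib 3.10.9 (Python 3.11.15). Results for a few genes that the rule for named genes would give are not reported here.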

Additional observations from a re-analysis of the deposited data

Results flagged for a closer look

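Differences between the lines in the response to ARM165, tested as OCI-AML2 minus MOLM14 in log2 units, passed the threshold for CD86 (-1.57), FCGR2A (-1.20), ITGAX (-0.69), CX3CR1 (-0.65) and CCR2 (0.45). Among 60 groups of 4 libraries checked for a library far from the others, of which chance would pick about 1 in 20, there were 2. ITGAM in OCI-AML2 with ARM165 reached 24.96 in replicate 2, against 10.9 in the nearest library. CD163 in MOLM14 with AZ2 reached 20.5 in replicate 2, against 3.07 in the nearest.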

How the results depend on the processing

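The counts of receptors called stayed within 1.5 times their values under every alternative run. With ARM165 against DMSO, 8 to 9 were called in MOLM14 and 6 to 9 in OCI-AML2 under other settings, and 7 to 9 in MOLM14 and 8 to 9 in OCI-AML2 when a library was left out. Against AZ2 the ranges over settings were 8 to 9 in MOLM14 and 7 to 8 in OCI-AML2, and for the difference between lines 4 to 6. With AZ2 against DMSO 0 were called throughout. Of the alternative values for single receptors, 1915 kept direction and side of the threshold, 38 lost the call and 3 gained it. No called value changed sign, but 41 values with no call did, among them FCGR2A with AZ2 in MOLM14 (0.063 with its copies summed) and ITGAM with ARM165 in OCI-AML2 (-0.066 without ARM165 replicate 2). The cause was not tested. The genome-wide count with AZ2 in OCI-AML2, 17, ranged from 7 to 20. Scaling each library to the same total shifted the median ARM165 change of all genes in MOLM14 to 0.22, from 0.031, and no receptor's direction with ARM165 against DMSO changed.

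Same-numbered libraries did not deviate together (correlations from -0.037 to 0.056, none over 0.1), so the numbers were not treated as pairs. With a replicate block, 8 receptors were called in MOLM14 and 8 in OCI-AML2 with ARM165 against DMSO. ITGAM in MOLM14 lost its call (adjusted p = 0.0686).

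ITGAM in OCI-AML2, CD163 in both lines and CD14 in MOLM14 lay near the limit of 10 estimated reads. The intervals of ITGAM and CD163 there were wide, and CD14 in MOLM14 had none because it was not tested.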
